A study of Mus musculus with 25 samples.

Results

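Twist1, Twist2, Hand1, Hand2, Tcf3, Tcf4, Tcf12, Tcf15, Tcf21 and Scx were followed through the forming mouse palate. They are the mesodermal and neural crest basic helix-loop-helix (bHLH) factors of the Twist, Hand, paraxis, capsulin and scleraxis kind, together with the broadly expressed E-proteins that they pair with. The 10 genes were taken by symbol, with no measured value used to choose them, from the 37406 genes listed. RNA-Seq libraries had been made from compartments that were cut out of the E14.5 palate by laser capture microdissection (LCM), soon after the palatal shelves meet at the midline. All 25 libraries came from wild type CD1 mice by their labels, and no compartment received a treatment. The anterior palate gave 13 libraries, 3 each of the medial, lateral and oral compartments and 4 of the nasal compartment, and the posterior palate gave 12, 3 of each compartment.

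A bHLH protein binds the short DNA motif called the E-box (CANNTG, N being any base) as a dimer. Tissue-restricted members such as Twist1 and Hand2 form dimers with one another or with E-proteins, which are the products of Tcf3, Tcf4 and Tcf12, and the choice of partner decides which sites are bound. Id proteins have the helix-loop-helix but no DNA-binding region, so an E-protein held by an Id protein is kept from DNA. In cranial neural crest, Twist1 is known for keeping cells mesenchymal and for keeping skull sutures open, Hand2 for patterning the lower jaw downstream of endothelin signaling, and Scx (scleraxis) for tendon.

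Values are RPKM (reads scaled by the length of the transcript and by the mapped reads of the library), which allow levels of different genes to be set side by side. The depth implied by the steps between low values lay between 1.64 and 6.56 M (mega) reads and was 3.27 M in the median library, so a gene below 1 RPKM rests on few reads. This is the depth behind the RPKM values and is far below the average of reads per sample that the study gives. The study removed duplicate reads and reads of more than 1 alignment, and the part of that in the gap was not tested. Posterior medial replicate 2 stood apart. It had 12935 genes above 0 where the other libraries had 16330 to 20605, its skeletal muscle markers summed to 0.30 RPKM with 9 of 10 at 0 (including Myod1 and Myog), and its epithelial markers summed to 138.9 RPKM, the highest of the posterior libraries. Among the genes followed it held the highest Twist1, Twist2 and Hand2 values and the lowest Tcf4 and Scx values, so results that rest on it are given with and without it. The names of the alignments placed the libraries in 8 sequencing runs, here called A to H, and named an Erk2 or a Tgfbr2 cross for 6 libraries whose labels give wild type. The 8 palate mesenchyme markers, which include Prrx1 and Osr2, summed to 720 to 1264 RPKM across the libraries. The study calls its replicates biological, but the labels do not say whether they came from separate embryos, so p-values measure the spread between these samples. In such bulk samples, fewer cells of a type and less RNA per cell cannot be told apart.

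The sequences just before 3 of the genes are shown because the proteins of this group act through E-boxes and because the results turn on Twist1, Twist2 and Hand2 among the tissue-restricted members. They are the 250 bases ahead of the first base of the RefSeq gene on GRCm38.p6, read 5′ to 3′ in the direction of the gene, with each CANNTG in capitals. The motif reads the same on both strands.
Twist1 (chr12:33957421-33957670, plus strand): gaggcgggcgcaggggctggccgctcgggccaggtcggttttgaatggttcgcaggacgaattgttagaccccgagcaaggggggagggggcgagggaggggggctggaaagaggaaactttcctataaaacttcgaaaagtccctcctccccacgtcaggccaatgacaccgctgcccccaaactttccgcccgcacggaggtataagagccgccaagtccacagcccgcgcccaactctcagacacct
Twist2 (chr1:91801211-91801460, plus strand): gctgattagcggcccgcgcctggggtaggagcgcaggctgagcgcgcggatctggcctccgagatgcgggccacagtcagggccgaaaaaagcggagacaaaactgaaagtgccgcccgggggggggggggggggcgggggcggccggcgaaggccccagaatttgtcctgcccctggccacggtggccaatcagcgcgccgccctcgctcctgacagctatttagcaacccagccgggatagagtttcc
Hand2 (chr8:57320733-57320982, plus strand): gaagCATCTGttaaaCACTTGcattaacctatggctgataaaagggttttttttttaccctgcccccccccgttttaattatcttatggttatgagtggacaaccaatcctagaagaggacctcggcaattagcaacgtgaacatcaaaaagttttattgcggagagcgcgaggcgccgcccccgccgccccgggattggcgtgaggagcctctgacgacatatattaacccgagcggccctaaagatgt
The Hand2 window held 2 matches, CATCTG with its first base at -246 and CACTTG with its first base at -235, counted back from -1, the base just before the gene. Neither Twist window held one, and they were rich in G and C (62.4% for Twist1 and 68.8% for Twist2, against a median of 52.4% over all windows). Of 32851 windows of this length in the table, 66.2% held at least 1 match and 31.8% held 2 or more. Such a match is a stretch of letters and says nothing about binding. Of the 10 genes, 6 had a window in the table.

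The group split into 3 tiers of expression. Twist1 and the 3 E-proteins were among the abundant messages of the palate. Over all libraries the mean level was 78.3 RPKM for Twist1, 57.6 for Tcf4, 55.6 for Tcf12 and 43.8 for Tcf3, which ranked 487th, 837th, 901st and 1362nd of the genes listed. Twist2, the close relative of Twist1, averaged 16.9 RPKM, and Scx averaged 3.72 RPKM. The remaining genes, Hand2 (0.83 RPKM), Tcf15 (0.772 RPKM), Hand1 (0.118 RPKM) and Tcf21 (0.0900 RPKM), were at or below the level that a few reads give. Thus the expression minimum of the anterior-posterior comparison, 10 RPKM in at least 6 libraries, was met by 5 of the 10, namely Twist1, Twist2, Tcf3, Tcf4 and Tcf12. Scx reached the lower minimum of 5 RPKM in at least 3 libraries only where 4 or 8 compartments were fitted together.

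**Figure D1:**
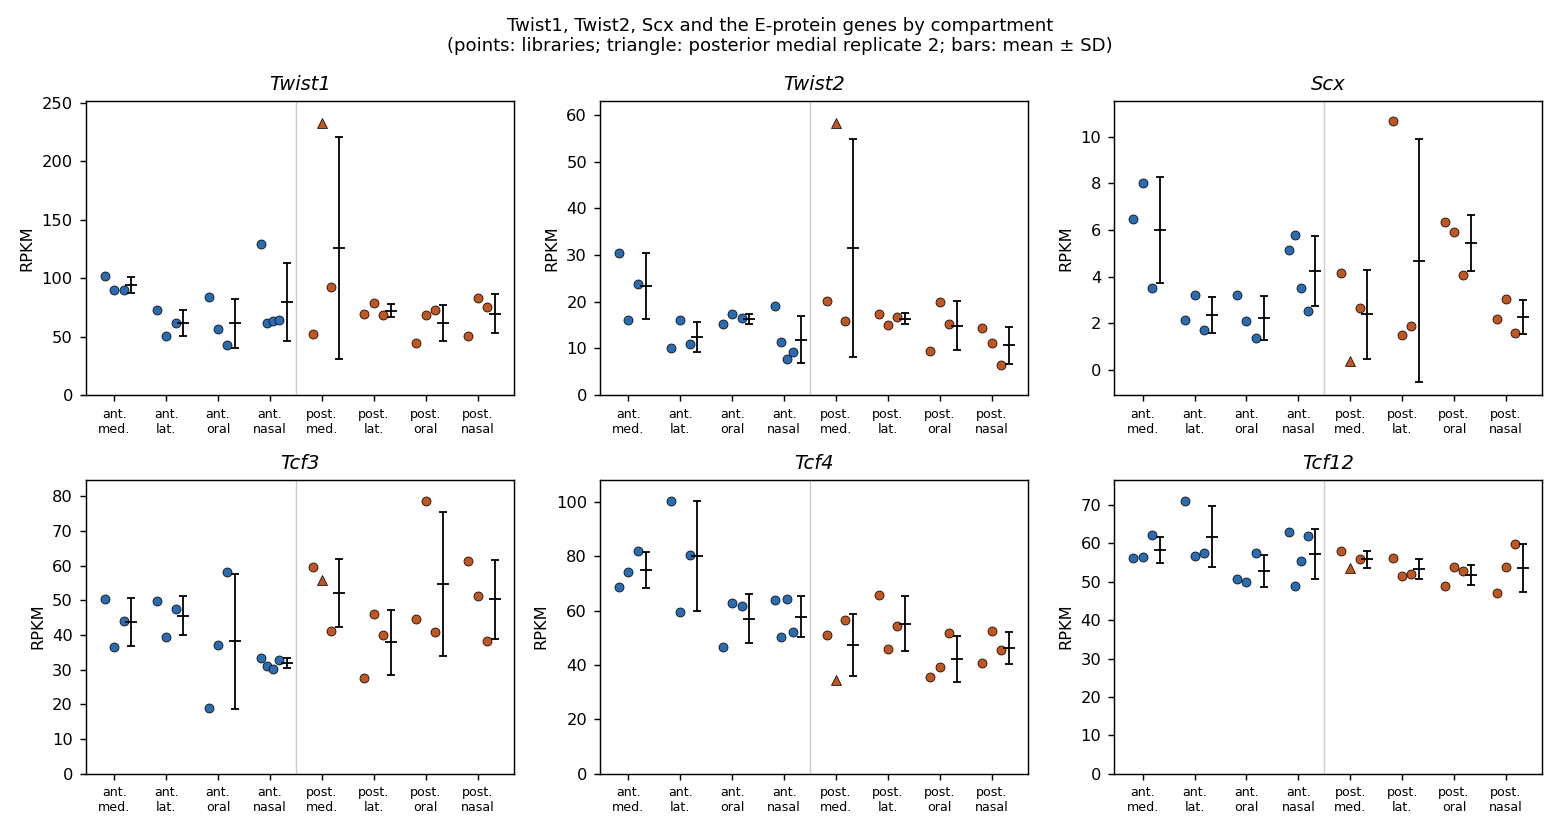
Levels in RPKM (vertical axes) of Twist1, Twist2, Scx, Tcf3, Tcf4 and Tcf12 in the 8 compartments (horizontal axes), with one point per library, anterior in blue and posterior in orange, a triangle for posterior medial replicate 2, and bars for the mean ± SD of each compartment. Tcf12 stays between 47.2 and 70.9 RPKM in all libraries, while the triangle is far above every other point for Twist1 (233 RPKM) and Twist2 (58.4 RPKM).

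Among the E-proteins, Tcf12, which encodes HEB, had nearly the same level in every compartment. Compartment means lay between 51.8 RPKM in posterior oral and 61.7 RPKM in anterior lateral, a 1.19-fold range. Its coefficient of variation over the 25 libraries was 9.51%, the 24th lowest of 11913 genes expressed at 5 RPKM or more in at least 3 libraries, whose median was 30.5%. Tcf12 was thus the steadiest of the 6 members that met that minimum. For Tcf4 and Tcf3 the coefficients were 26.9% and 29.1%, close to that median. The median is over genes of all levels above the minimum, and no comparison with genes of like level was made.

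Tcf4, which encodes the E-protein E2-2, was lower in the posterior palate. In the 13 anterior libraries the lowest, median and highest levels were 46.7, 64.0 and 100.2 RPKM. In the 12 posterior libraries they were 34.7, 48.4 and 65.8 RPKM. The 2 ranges overlapped, with the posterior values reaching lower and the anterior values higher. The means were 66.7 ± 14.7 RPKM (SD, n = 13) and 47.8 ± 9.26 RPKM (SD, n = 12), a log2 difference of -0.47 (SE 0.12, 95% interval -0.72 to -0.22, adjusted p = 0.0249 by limma with Benjamini-Hochberg adjustment over all genes tested). It was the only one of the 5 genes tested to pass, where 286 of all 8608 genes passed, or 3.32%. By the thresholds of the study, an unadjusted P under 0.05 and a change of more than 2-fold, none of the 5 passed in limma, against 1.75% of all genes. The study applied these thresholds along this axis to a pooled Audic-Claverie test, which it says typically gave larger lists. That test needs read counts and was not run here.

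The order of the Tcf4 means ran through all 4 anterior compartments before the first posterior one. The means were 80.1 RPKM in anterior lateral, 75.0 in anterior medial, 57.7 in anterior nasal, 57.0 in anterior oral, 55.3 in posterior lateral, 47.5 in posterior medial, 46.3 in posterior nasal and 42.3 in posterior oral. Neighbours in that order overlapped, apart from anterior medial (68.9 to 82.0 RPKM) and anterior nasal (50.3 to 64.4 RPKM). The posterior mean was lower in each of the 4 pairs of matched compartments, by 0.69 on the log2 scale for medial, 0.52 for lateral, 0.44 for oral and 0.32 for nasal, and 8.98% of all genes tested had a lower posterior mean in all 4. The medial groups did not overlap (68.9 to 82.0 RPKM anterior, 34.7 to 56.7 posterior), whereas those of the other 3 pairs did. The share of all genes that separate between the medial groups was not worked out. The study shows the medial and lateral compartments in a diagram of their own and the oral and nasal ones in another. The 4 pairs therefore need not be 4 separate regions of the palate.

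Of the 8 sequencing runs, 3 held libraries from both ends of the palate, and in each the Tcf4 ranges were separate. In run C the anterior libraries had 52.1 and 61.6 RPKM and the posterior ones 35.6 and 40.8 RPKM. In run G the 3 anterior libraries had 68.9 to 82.0 RPKM and the 5 posterior ones 34.7 to 56.7 RPKM. Those 3 are the anterior medial libraries, so this separation and that of the medial groups share libraries. In run H the anterior library had 80.4 RPKM and the 3 posterior ones 45.5 to 54.2 RPKM. The log2 differences within runs were -0.57, -0.69 and -0.73, and 1.14% of all genes were lower in the posterior without overlap in each of these runs. The call held when any single library was left out, with an adjusted p between 0.0109 and 0.0482, and was lost with no expression minimum (adjusted p = 0.0538). With the run added as a term to the posterior-anterior fit it held (-0.67, adjusted p = 0.00929), and in a fit of the 8 compartments with the run as a term the difference was of the same size but was not called (-0.65, adjusted p = 0.164). Along the same axis the palate mesenchyme markers Prrx1 (97.4 RPKM posterior, 148 anterior) and Cdh11 (97.7 RPKM posterior, 140 anterior) were also lower and Col1a1 higher, 3 of the 8 markers of that list being called, while the sum of the list was 720 to 1264 RPKM in the posterior and 837 to 1164 in the anterior. Of 3 cartilage markers tested Col2a1 was higher in the posterior (31.3 and 14.6 RPKM, adjusted p = 0.00374), and that list summed to 60.3 to 149 RPKM in the posterior (median 91.1) and 26.3 to 126 in the anterior (median 73.2). None of 3 epithelial or 4 osteoblast markers tested was called, and the median sums were 41.6 RPKM posterior and 72.6 anterior for the epithelial list and 104 and 78.7 for the osteoblast list. The part of tissue makeup in the Tcf4 difference was not tested.

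**Figure D2:**
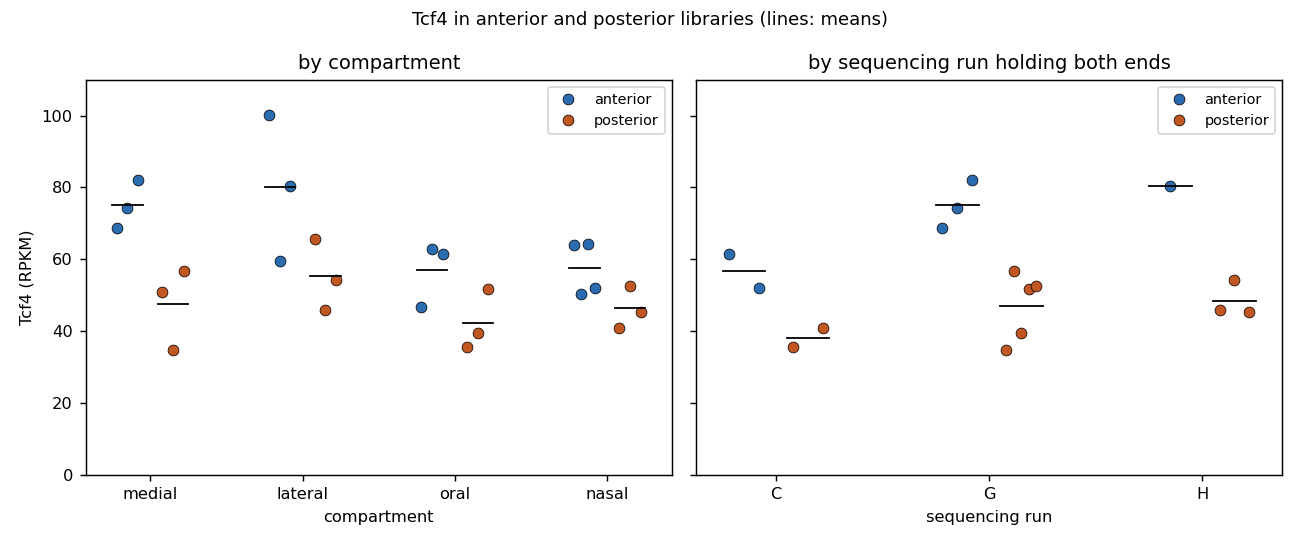
Tcf4 levels in RPKM (vertical axis) with one point per library and lines for means, anterior in blue and posterior in orange, by compartment on the left and, on the right, by sequencing run for the 3 runs that held both ends. The posterior mean is below the anterior mean in all 4 compartments, and within runs C, G and H no posterior point reaches an anterior one.

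Tcf3, which encodes E12 and E47, had the opposite tendency without passing the test. Its levels were 19.1 to 58.2 RPKM in the anterior (median 37.2) and 27.6 to 78.6 RPKM in the posterior (median 45.4), widely overlapping ranges. The log2 difference was 0.32 (SE 0.16, 95% interval -0.01 to 0.65, adjusted p = 0.351). For Tcf12 the posterior minus anterior difference was -0.10 (SE 0.07, 95% interval -0.24 to 0.05, adjusted p = 0.555). The summed level of the 3 E-proteins was 163 ± 27.1 RPKM in the anterior and 150 ± 11.6 in the posterior. Within that sum Tcf4 made up 40.6% ± 3.32 (SD, n = 13) in the anterior and 31.9% ± 6.0 (SD, n = 12) in the posterior, Tcf3 23.7% ± 4.05 and 32.3% ± 7.44, and Tcf12 35.7% ± 4.05 and 35.8% ± 2.80. These shares describe the same values as the levels and were not tested. Tcf4 was the largest of the 3 shares in the anterior, and in the posterior the shares were nearly even.

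Twist1 did not differ between the ends of the palate beyond the spread of the libraries. It had 42.7 to 129 RPKM in the anterior (median 64.1) and 44.2 to 233 RPKM in the posterior (median 71.2). The log2 difference was 0.06 (SE 0.20, 95% interval -0.36 to 0.48, adjusted p = 0.926). Without posterior medial replicate 2 the highest posterior level was 92.8 RPKM and the posterior mean 68.7 RPKM, below the anterior mean of 74.5 RPKM, with a log2 difference of -0.09 (adjusted p = 0.777). Twist2 likewise had 7.77 to 30.3 RPKM in the anterior and 6.48 to 58.4 RPKM in the posterior, a log2 difference of 0.11 (SE 0.25, 95% interval -0.40 to 0.63, adjusted p = 0.883), and of -0.06 without that library. Twist1 was higher than Twist2 in each of the 25 libraries.

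The compartment pair with the most uniform Twist difference was the anterior medial and lateral palate. Twist1 was at 102, 89.8 and 90.2 RPKM in the 3 medial libraries and at 72.7, 50.8 and 61.9 RPKM in the 3 lateral ones. The groups did not overlap, and the means were 93.9 ± 6.78 and 61.8 ± 11.0 RPKM (SD, n = 3 each). The lateral minus medial log2 difference was -0.62 (SE 0.15, 95% interval -0.98 to -0.25) and its adjusted p of 0.0986 missed the threshold in limma, while limma with a mean-variance trend called it (adjusted p = 0.0430). Twist2 was at 30.3, 16.1 and 23.7 RPKM in medial and at 10.1, 16.1 and 10.9 RPKM in lateral libraries, where the lowest medial level (16.09) was only just above the highest lateral level (16.05). Its difference was -0.90 (SE 0.27, 95% interval -1.52 to -0.28, adjusted p = 0.152). Separation of 3 libraries from 3 was common here, at 21.3% of the 10427 genes tested. Without that trend none of the 5 genes tested was called, by adjusted p (2.51% of all genes) or by the thresholds of the study (2.37%). The other members tested in this pair hardly moved, with 0.06 for Tcf3 (95% interval -0.31 to 0.44), 0.06 for Tcf4 (-0.39 to 0.52) and 0.08 for Tcf12 (-0.23 to 0.38).

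The 4 Id genes, which encode the inhibitors of E-proteins, were all lower in the anterior lateral than in the anterior medial libraries without overlap. In that pair 21.3% of all genes tested did not overlap. The test was passed by 2 of the 4, and by 2.51% of all genes. Id4 was at 19.6, 17.2 and 20.8 RPKM in medial and at 8.20, 9.11 and 8.11 RPKM in lateral libraries, a log2 difference of -1.17 (SE 0.12, adjusted p = 0.00447). Id1 was at 82.7, 86.5 and 117 RPKM in medial and at 53.7, 46.4 and 47.7 RPKM in lateral libraries, a difference of -0.94 (SE 0.16, adjusted p = 0.0277). The Id1 call was less firm, since leaving out medial replicate 2 or any one lateral library took its adjusted p to between 0.0683 and 0.135, and the replicate block took it to 0.0821. Id2 had means of 43.0 RPKM lateral and 59.2 medial (-0.46, adjusted p = 0.134) and Id3 of 75.3 and 107 RPKM (-0.50, adjusted p = 0.158). The median difference of the 4 Id genes was -0.72, against -0.03 over all genes tested. Per unit of E-protein message, the summed Id level was 1.58 ± 0.10 in medial and 0.951 ± 0.105 in lateral libraries, and the summed Twist level 0.663 ± 0.079 and 0.399 ± 0.028 (SD, n = 3 each, ratios of RPKM sums).

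Runs and marker genes moved with this pair. The 3 medial libraries were all of run G and the lateral ones of runs F and H, so run and compartment cannot be told apart within the pair. In a fit of all 25 libraries with the run as a term, the Twist1 difference was -0.46 and that of Twist2 was 0.08, the opposite sign. Those of Id1 (-1.02) and Id4 (-1.42) were as large as in the pair alone, and neither was called there. The 6 cartilage markers summed to 77.5 to 126 RPKM in medial and 26.3 to 28.6 in lateral libraries, none being at 0 in either group. Of the 4 that were tested, 2 were lower in lateral, Sox9 (10.6 RPKM lateral, 56.0 medial, adjusted p = 0.00216) and Acan (1.20 and 7.08 RPKM, adjusted p = 0.00649), as was Runx2 (14.6 and 43.3 RPKM), 1 of 2 osteoblast markers tested in a list that summed to 60.7 to 190 RPKM in lateral and 77.5 to 114 in medial libraries. Of 6 epithelial markers tested Krt14 was lower (8.42 and 37.6 RPKM) and Krt8 higher (7.75 and 2.89 RPKM) in lateral, and that list summed to 42.3 to 92.5 RPKM in lateral and 71.9 to 129 in medial libraries. The palate mesenchyme factor Osr2 (80.8 and 40.9 RPKM), 1 of 8 tested, and the Schwann cell factor Sox10 (6.66 and 1.20 RPKM), 1 of 2 tested, were higher in lateral. Acan met the expression minimum only through the medial libraries, and Krt8 and Sox10 only through the lateral ones, the groups in which they were high. The part of these markers in the Twist and Id differences was not tested.

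**Figure D3:**
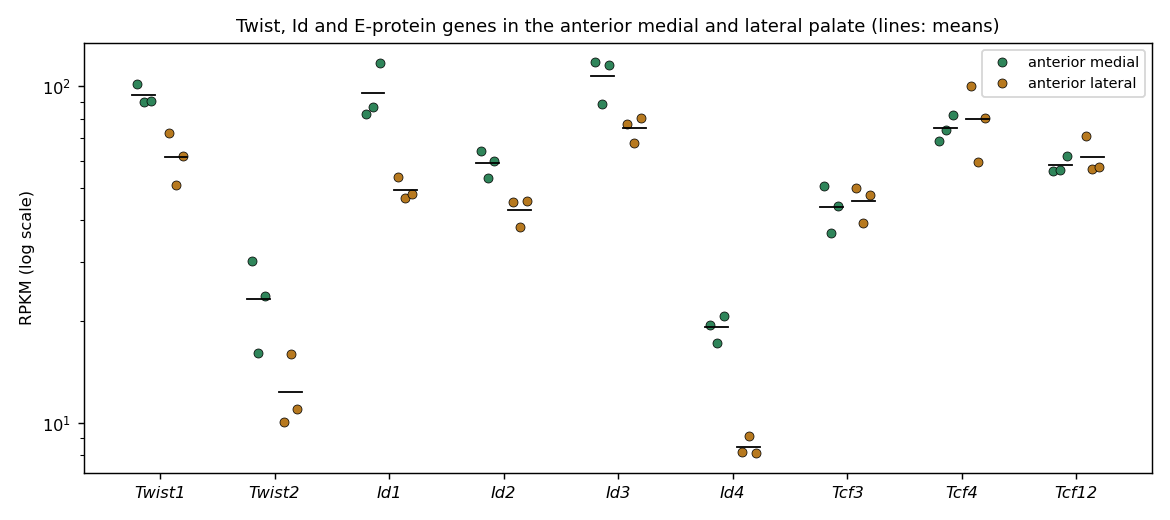
Levels in RPKM on a log axis of the Twist, Id and E-protein genes in the 3 anterior medial (green) and 3 anterior lateral (brown) libraries, one point per library with lines for means. The medial points of Twist1 and of all 4 Id genes are above the lateral ones, those of Twist2 touch at 16.1 RPKM, and those of Tcf3, Tcf4 and Tcf12 are mixed.

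The posterior medial and lateral compartments gave a wider spread. Twist1 was at 52.0, 233 and 92.8 RPKM in posterior medial and at 69.7, 78.8 and 68.3 RPKM in posterior lateral libraries, so the medial group reached both below and above the lateral one. Its log2 difference was -0.53 (SE 0.56), and without posterior medial replicate 2 it was 0.05. Twist2, at 20.2, 58.4 and 15.9 RPKM in medial and 17.3, 15.04 and 16.7 RPKM in lateral libraries, had a difference of -0.70 (SE 0.52), and of -0.13 without that library. No member was called here, and no gene of the 10324 tested was called by adjusted p in limma (0%), although 159 had an unadjusted P under 0.05. By the thresholds of the study 1.12% of all genes and none of the members passed. The test of whether the anterior and posterior lateral minus medial differences differ called no member, with -0.09 for Twist1 (SE 0.61) and -0.20 for Twist2 (SE 0.62), where 0.00902% of all genes were called. Without posterior medial replicate 2 these were -0.67 and -0.77, each with an adjusted p of 0.891.

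Between oral and nasal compartments the Twist genes and E-proteins showed no difference that passed. In the anterior, Twist1 was at 84.0, 56.8 and 42.7 RPKM in oral libraries and at 129, 61.5, 63.4 and 64.1 RPKM in nasal ones, where replicate 1 was far above the other nasal libraries. The difference was -0.36 (SE 0.36). No gene was called by adjusted p in limma over the 10684 tested (0%), with 318 at an unadjusted P under 0.05, and 1.44% passed the thresholds of the study. In the posterior, Twist1 was at 44.2, 68.1 and 72.8 RPKM in oral and 50.6, 83.3 and 75.1 RPKM in nasal libraries (-0.18, SE 0.29). None of the members was called there, by adjusted p (1.25% of all genes) or by the thresholds of the study (3.5%). Twist2 had the higher mean in oral in both ends, by 0.54 (SE 0.33) in the anterior and 0.49 (SE 0.37) in the posterior, neither past the threshold. Among the inhibitors, Id4 was higher in posterior oral (20.1, 20.7 and 24.99 RPKM) than in posterior nasal libraries (6.64, 12.1 and 12.1 RPKM), by 1.13 (SE 0.28, adjusted p = 0.138), and these groups did not overlap, as for 11.8% of all genes tested. A test for any difference among the 8 compartments called 4.42% of 11913 genes and none of the 6 members it covered. Tcf4 had an adjusted p of 0.125 in it.

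**Figure D4:**
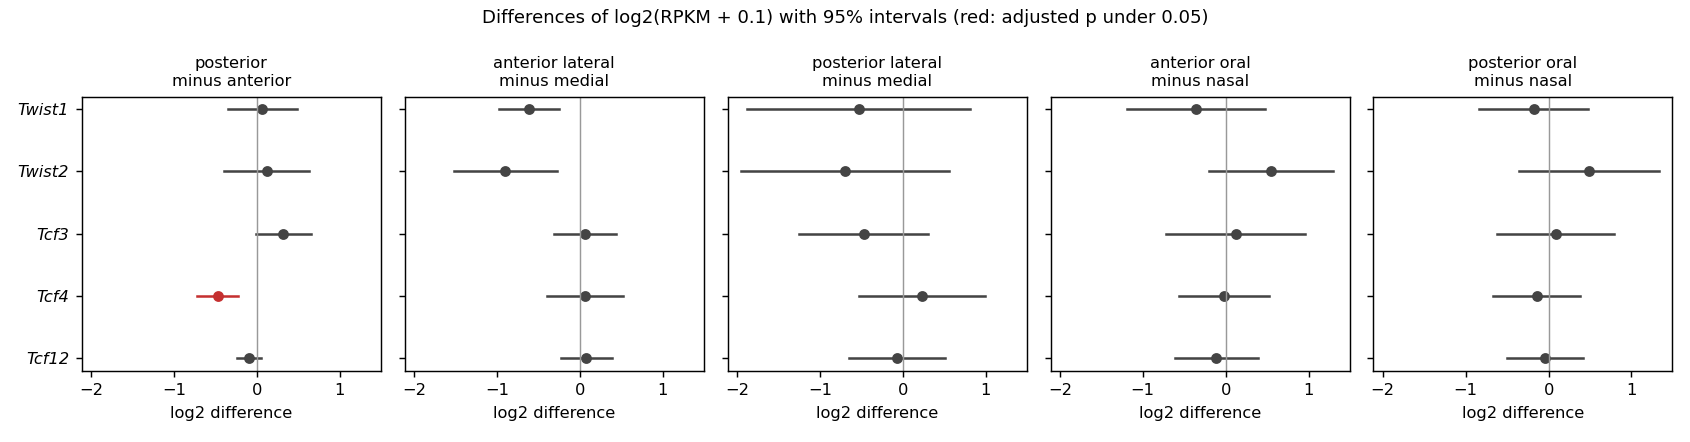
Differences of log2(RPKM + 0.1) (horizontal axes) with 95% intervals for Twist1, Twist2, Tcf3, Tcf4 and Tcf12 in the 5 comparisons, in red where the adjusted p was under 0.05. Tcf4 between posterior and anterior (-0.47) is the only red point, and the Twist1 (-0.62) and Twist2 (-0.90) intervals in the anterior lateral minus medial panel lie below 0.

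Hand2 was scarce and was found mainly in the anterior palate. All 13 anterior libraries had reads on it, 92 in all, at 0.137 to 2.18 RPKM. In the posterior, 5 of 12 libraries had reads, 49 in all, and 35 of those were in posterior medial replicate 2 (6.66 RPKM), more than in any other library. The other 11 posterior libraries had 14 reads among 4 libraries, with at most 0.603 RPKM. Per M reads this was 2.22 in the anterior (exact 95% Poisson interval 1.79 to 2.72), 1.02 in the posterior (0.754 to 1.35) and 0.306 in the posterior without that library (0.167 to 0.513). These intervals cover counting error only, since reads amplified from few cells are not independent molecules.

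In a fit with no expression minimum, the Hand2 posterior minus anterior difference was -2.04 (SE 0.57, adjusted p = 0.0587), with 2.17% of 22399 genes called. Without posterior medial replicate 2, an alternative chosen after seeing the data, it was -2.49 (SE 0.40, adjusted p = 4.9e-04), with 2.84% of genes called. The side of the threshold thus rested on 1 library. With a minimum of 1 RPKM in at least 6 libraries the adjusted p was 0.0393, but Hand2 met that minimum almost wholly through the anterior libraries, the group in which it was high. On a scale of log2(RPKM + 0.1) differences of such a low gene depend on the pseudocount and are given for their sign and test rather than their size. The oral compartments showed the difference most plainly, with 2.18, 1.03 and 1.57 RPKM in anterior oral and 0, 0 and 0.121 RPKM in posterior oral libraries. Of the 3 runs with both ends, 2 had higher values in the anterior without overlap. These rest on few reads, and the share of all genes that separate in this way was not worked out. Within run C the anterior oral library had 23 reads and the anterior nasal library 3, while the posterior oral library had 0 and the posterior nasal library 3. The 2 nasal libraries thus had equal reads. Their levels (0.330 RPKM anterior, 0.221 posterior) differed only through depth (4.07 and 6.07 M reads). Within run H the anterior library had 8 reads and the 3 posterior ones none. Run G overlapped, with 0.137 to 0.955 RPKM (mean 0.594) in its 3 anterior libraries and 0 to 6.66 RPKM (mean 1.403) in its 5 posterior ones, which include posterior medial replicate 2, the other 4 having at most 0.232 RPKM.

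Hand1, the Hand gene of the heart and the distal jaw, was barely detected. It had 27 reads in 8 libraries, with at most 0.643 RPKM, and no library reached 1 RPKM. Run C held 20 of the 27, 8 in anterior oral replicate 3, 7 in posterior nasal replicate 1 and 5 in posterior oral replicate 1, with none in anterior nasal replicate 4. Per M reads that was 0.872 (exact 95% Poisson interval 0.532 to 1.35) in the 4 libraries of run C and 0.105 (0.0422 to 0.216) in the 21 others. Run C was the run whose alignment names mention the Tgfbr2 cross, and the part of that cross was not tested. Anterior and posterior had 12 and 15 reads, with 0.289 and 0.312 per M reads, which were within each other's intervals (0.149 to 0.505 and 0.175 to 0.514).

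**Figure D5:**
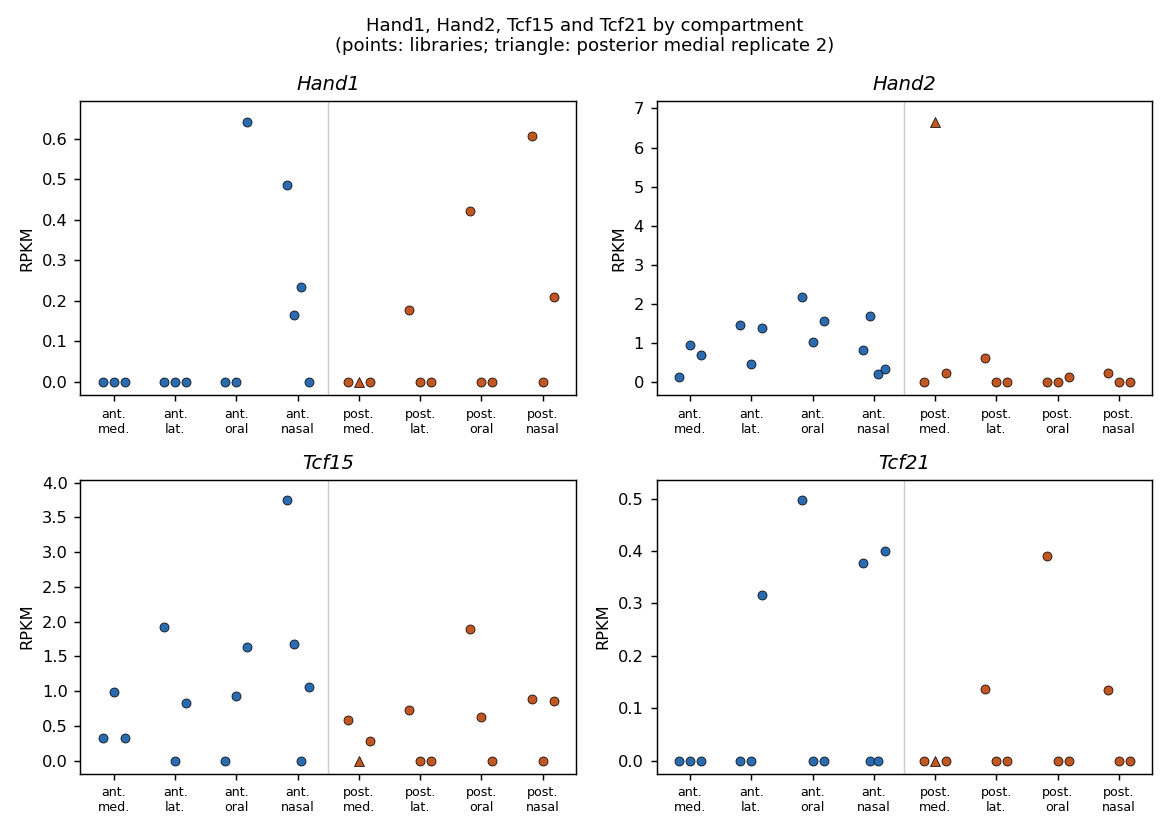
Levels in RPKM (vertical axes, each with its own range) of Hand1, Hand2, Tcf15 and Tcf21 in the 8 compartments, with one point per library, anterior in blue, posterior in orange and a triangle for posterior medial replicate 2. Hand2 is above 0 in all 13 anterior libraries and in 5 posterior ones, the highest being the triangle at 6.66 RPKM.

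Scx was at 6.46, 8.0 and 3.53 RPKM in the anterior medial compartment and at 2.13, 3.23 and 1.71 RPKM in the anterior lateral compartment, without overlap. Of all genes tested in that pair 21.3% did not overlap. In a limma fit with no expression minimum the lateral minus medial difference was -1.28 (SE 0.38, adjusted p = 0.267), which was not called. In the oral and nasal compartments its direction turned between the ends of the palate. Anterior oral libraries had 3.22, 2.08 and 1.36 RPKM and anterior nasal ones 5.14, 5.78, 3.51 and 2.51 RPKM, overlapping and lower in oral. Posterior oral libraries had 6.33, 5.90 and 4.06 RPKM and posterior nasal ones 2.17, 3.03 and 1.57 RPKM, higher in oral and without overlap, where 11.8% of all genes tested in that pair did not overlap. The test of that difference of differences gave -2.16 (SE 0.52, 95% interval -3.30 to -1.02), but with an adjusted p of 0.320 it was not among the 0.035% of genes called. Scx met the minimum of that test only through anterior nasal and posterior oral libraries, the groups whose high values make the difference. Within each run that held both compartments of a pair the sign was the same, lower in oral in 3 runs of the anterior and higher in oral in 2 runs of the posterior. The widest spread was in posterior lateral, with 10.7, 1.48 and 1.89 RPKM, and the corresponding test along lateral minus medial gave -2.15 (SE 1.23, adjusted p = 0.964), and -1.21 without posterior medial replicate 2. There Scx met the minimum only through anterior medial libraries and the highest posterior lateral one.

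The Scx values carry a limit of annotation. Scx (mm9 chr15:76287868-76289898) lies wholly inside the span of Bop1 (chr15:76283426-76307699), a ribosome biogenesis gene of the opposite strand with 0.43 to 31.3 RPKM (median 13.1), and the libraries did not keep strand. Reads of the 2 genes where they overlap therefore cannot be told apart. In posterior medial replicate 2 both were at their lowest, 0.375 RPKM for Scx and 0.43 RPKM for Bop1. None of Twist1, Twist2, Hand1, Hand2, Tcf3, Tcf4 and Tcf15 had a listed gene overlapping its span. The 2 pseudogenes inside the Tcf12 span were at 0 throughout, and Tcf21 shared its place with Gm10824 (0 to 1.34 RPKM).

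Tcf15 (paraxis), a factor of somites, was above 0 in 17 of the 25 libraries but never above 3.74 RPKM, which was reached in anterior nasal replicate 1. Tcf21 (capsulin), a factor of visceral mesenchyme and of facial muscle precursors, had 10 reads in 7 libraries, with at most 3 in a library and 0.496 RPKM. Differences of either gene were not detectable at this depth. In a fit with no minimum the posterior minus anterior difference was -0.95 (SE 0.66, adjusted p = 0.597) for Tcf15 and -0.31 (SE 0.37, adjusted p = 0.747) for Tcf21.

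The other tissue-restricted bHLH genes, 32 in the list, gave low values. The expression minimum of 5 RPKM in at least 3 libraries was met by 4 (Atoh8, Tal1, Lyl1 and Nhlh2), while 13 never reached 1 RPKM and Tcf24 was at 0 in all libraries. Only these 4 could enter any test, and none of them entered that of posterior against anterior. None was called where it was tested. The highest mean among them was that of Lyl1, 7.65 RPKM, below the 16.9 RPKM of Twist2. Of the E-box-binding zinc finger genes, which include Snai1 and Zeb1, 4 of 5 were tested in the anterior medial and lateral pair, and Snai1 was lower in lateral (14.2 ± 0.11 RPKM) than in medial libraries (40.7 ± 13.5 RPKM, SD, n = 3 each), a log2 difference of -1.46 (SE 0.22, adjusted p = 0.0168). The median difference of the 4 was -0.10, against -0.03 over all genes, of which 2.51% were called.

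Of the 7 E-protein cofactor genes tested along the anterior-posterior axis, 1 passed, where 3.32% of all genes did. Lmo4, which encodes a LIM-only adaptor protein, was higher in the posterior (49.1 ± 40.1 RPKM, n = 12) than in the anterior (19.9 ± 5.40 RPKM, n = 13), by 1.06 on the log2 scale (SE 0.25, adjusted p = 0.0128), with overlapping ranges. The median of the 7 differences was 0.03, as over all genes. None of the 4 Id genes passed along this axis, with a median of 0.01.

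A list of endothelin and Dlx pathway genes of the first arch had genes called in several places. The list also holds Barx1, which is neither an endothelin nor a Dlx gene. Of 7 tested between the ends of the palate, 1 rose and 1 fell in the posterior, where 3.32% of all genes were called. The median difference was 0.26, against 0.03 over all genes. Barx1, a homeobox gene of the posterior palate, was at 81.2 ± 21.5 RPKM in the posterior and 4.13 ± 2.43 in the anterior (4.72, SE 0.48, adjusted p = 2.3e-07), without overlap. It met the expression minimum only through the posterior libraries, the group in which it was high. Ednra, the endothelin receptor, was at 50.4 ± 33.4 RPKM in the posterior and 88.0 ± 19.2 in the anterior (-1.03, SE 0.25, adjusted p = 0.0190), with overlapping ranges. Dlx5, a target of endothelin signaling in the arch and also a bone gene, was lower in posterior oral (10.04 ± 3.86 RPKM) than in posterior nasal libraries (51.5 ± 19.8 RPKM), by 2.35 on the log2 scale (adjusted p = 0.0227), and Dlx3 was lower as well (0.350 and 14.9 RPKM, adjusted p = 0.0256). These were the 2 called of 8 tested, the median being 0.10, where 1.25% of all genes were called. Dlx3 met the expression minimum only through the posterior nasal libraries, the group in which it was high. All 5 osteoblast markers tested in that pair were lower in oral too, and the 8 of that list summed to 86.7 to 109 RPKM in oral and 387 to 582 RPKM in nasal libraries.

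Of the tendon genes that accompany Scx, 3 of the 6 tested along the axis were called, where 3.32% of all genes were. Col12a1 (114 ± 41.0 RPKM posterior, 37.3 ± 16.4 anterior, difference 1.65, adjusted p = 6.4e-05) and the tendon homeobox gene Mkx (30.4 ± 4.97 and 18.3 ± 11.2 RPKM, 0.98, adjusted p = 0.0377) were higher in the posterior, and Col14a1 (5.92 ± 4.70 and 39.0 ± 13 RPKM, -3.06, adjusted p = 7.4e-06) was lower. The median of the 6 was 0.53, against 0.03 over all genes. In the anterior lateral minus medial comparison 2 of 7 were called, where 2.51% of all genes were. Mkx was lower (8.08 ± 1.89 and 28.0 ± 7.05 RPKM) and Kera, which encodes keratocan, higher (7.05 ± 1.51 and 1.52 ± 0.71 RPKM). Kera met the expression minimum only through the lateral libraries, the group in which it was high. Scx itself was below the expression minimum of both tests.

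The genes whose levels ran most alike over the 25 libraries differed from member to member. Pearson's r across libraries of log2(RPKM + 0.1) is a description here, since the libraries share compartments, runs and depth. For Tcf4 the closest of 11913 genes were Wnt5a (0.79), Zbtb20 (0.78) and Pde4d (0.77), which held at 0.75, 0.75 and 0.73 without posterior medial replicate 2. For Tcf12 the closest gene was Tcf4 itself (0.65, and 0.68 without that library), followed by Fancb and Pde4d (both 0.63). Tcf3 ran with E2f4 (0.91), Snapc4 and Cpsf1 (both 0.90). For Twist1 the closest were Mrps36 (0.89), Tmem55a (0.86) and Ccdc127 (0.86), and for Twist2 Rnf213 (0.81) and Gm14492 (0.72) were among the closest, values that fell to between 0.59 and 0.82 without posterior medial replicate 2. Twist1 and Twist2 had an r of 0.59 with each other, and 0.29 without that library. For Scx the closest were Ltbp1 and Esrrg (both 0.77) and 2010011I20Rik (0.76), which fell to 0.61, 0.61 and 0.59.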

How the data were processed

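Expression in 8 compartments of the E14.5 palate, isolated by LCM, was measured by RNA-Seq, after NuGEN Ovation amplification and Nextera library construction, in 25 libraries. The authors deposited RPKM values for 37406 genes. Per the labels' processing notes TopHat and the mouse genome build mm 9 were used, and the study's methods give GeneSpring, with reads of more than 1 alignment and duplicate reads removed. The version of the aligner and the gene annotation are not given in the sources used here. The header of one column, of anterior medial replicate 2, kept an alignment name in place of the word RPKM and was read as RPKM. Groups came from the sample labels and runs from the alignment names. No measured value was used to choose the 10 genes, but they and the lists were set with earlier results of these data known.

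Values were compared as log2(RPKM + 0.1) with limma 3.58.1 in R 4.3.3 (lmFit, eBayes), with a threshold of 0.05 on Benjamini-Hochberg p-values adjusted across every gene tested. A gene entered the test of 2 compartments if 3 or more of the compared samples reached 5 RPKM, and the test of posterior against anterior if 6 or more samples reached 10 RPKM. A fold change on this scale understates the change of low genes. The test was tested on simulated data. Read counts of low genes and the depth of 1.64 to 6.56 M reads were worked out from the steps between RPKM values. Tables and figures used matplotlib 3.10.9, scipy 1.17.1, pandas 2.3.3 and numpy 2.4.6 under Python 3.11.15. Promoter sequences are from RefSeq on GRCm38.p6, and other coordinates are mm 9 as deposited.

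Named genes are the 10 members, the 4 Id genes, up to 4 genes called in any test from each other list by lowest p, the 3 genes most alike to each member that reached 5 RPKM in 3 or more libraries, and genes overlapping a member. One gene that this rule names is not reported here. Marker genes beyond these were named after their values were seen. Replicate numbers are shared between compartments. The deviations of same-numbered samples from their group means correlated at 0.24, 0.22 and 0.12 in the anterior oral and nasal pair, and not all above 0.1 in the other pairs. The alternatives were other pseudocounts, centring, quantile normalization, a mean-variance trend, other expression minima, the replicate block, the run as a term, fits of all libraries and leaving out each library.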

Additional observations from a re-analysis of the deposited data

Results flagged for a closer look

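Twist1 in anterior nasal replicate 1 was at 129.3 RPKM, while the other 3 anterior nasal libraries had 61.5, 63.4 and 64.1 RPKM. The gap to the nearest library was 0.961 of the range of the group, above Dixon's critical value for 4 samples. The same library had the highest Tcf15 level of the series, 3.74 RPKM. The anterior nasal group was the only one with enough samples to be examined in this way, which was done for the members. For a single gene, chance alone singles out about 1 in 20 groups. The rate over all the members together is higher and was not worked out.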

How the results depend on the processing

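Of 1235 values recomputed under alternatives, 1164 kept their direction and side of the threshold, or their size, 13 lost the call, 4 gained one, 50 changed sign and 4 counts moved by more than 1.5 times. The cause was not tested for any of them, other than that alternatives with more genes tested adjust over more genes. The count of members called between posterior and anterior was 1, and became 0 with no filter on low values, 2 with a minimum of 1 RPKM (Tcf4 and Hand2) and 0 with all 25 samples and the run as a term. In anterior lateral minus medial it was 0, and 1 with a mean-variance trend (Twist1, adjusted p = 0.0430). Every sign change was of a difference that was not called. With quantile normalization, Twist1 between posterior and anterior became -0.0089, Tcf12 in posterior lateral minus medial 0.081, Tcf4 in anterior oral minus nasal 0.061 and Tcf12 in posterior oral minus nasal 0.026. With the run as a term among the compared libraries, Twist2 between posterior and anterior became -0.095, and in posterior oral minus nasal Tcf3 became -0.11 and Tcf12 0.016. With all 25 samples and the run, Twist2 and Tcf12 in anterior lateral minus medial became 0.077 and -0.19, Twist2 and Tcf3 in posterior lateral minus medial 0.18 and 0.43, Tcf3 and Tcf12 in posterior oral minus nasal -0.11 and 0.016, and the anterior less posterior difference of Twist1 along lateral minus medial 0.41. With the replicate block, the anterior less posterior difference of Twist2 along oral minus nasal became -0.033. The block took Tcf4 between posterior and anterior to -0.50 (adjusted p = 0.0193) and changed no other call than that of Id1 in the anterior lateral and medial pair, where the numbers did not pair the samples. That Id1 call was also lost with no filter on low values (adjusted p = 0.111), with a minimum of 1 RPKM (0.0590) and, with that of Id4, in both fits of all 25 samples. The Hand2 fits without posterior medial replicate 2 were chosen after seeing the data.

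With each library left out in turn, differences that took both signs ranged as follows. Between posterior and anterior, Twist1 ran from -0.087 to 0.13 and Twist2 from -0.056 to 0.23. In anterior lateral minus medial, Tcf3 ran from -0.057 to 0.17, Tcf4 from -0.11 to 0.26 and Tcf12 from -0.027 to 0.13. In posterior lateral minus medial, Twist1 ran from -1.03 to 0.054. In anterior oral minus nasal, Tcf3 ran from -0.26 to 0.55 and Tcf4 from -0.097 to 0.12, and in posterior oral minus nasal Twist1 ran from -0.39 to 0.046, Tcf3 from -0.21 to 0.26 and Tcf12 from -0.13 to 0.041. Of the anterior less posterior differences along lateral minus medial, Twist1 ran from -0.67 to 0.41, Twist2 from -0.77 to 0.17 and Tcf4 from -0.35 to 0.042. Of those along oral minus nasal, Twist1 ran from -0.44 to 0.079, Twist2 from -0.23 to 0.38, Tcf3 from -0.34 to 0.46 and Tcf12 from -0.15 to 0.018.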
